A study of Rattus norvegicus with 90 samples.

Results

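The effect of a systemic IL-1β challenge on microglia was measured at postnatal day 7 (P7) in 6 of the 90 libraries of the series. They were chosen by their titles: 3 injured libraries and 3 control libraries of the run in which cells or a sham were given through a vein at P5. The series asked how human umbilical cord mesenchymal stromal cells (HuMSC) change the microglial transcriptome after perinatal inflammation, with 3 doses, 2 routes and 3 ages in 6 sequencing runs of 15 libraries. Male Wistar Han pups were given 20 µg per kg of mouse IL-1β, or an equal volume of PBS, intraperitoneally between P1 and P5, and 48 h after the P5 treatment CD11b/c-bearing cells were bead-enriched from brains cleared of cerebellum and olfactory bulbs.

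The injured group had IL-1β and a sham injection of PBS (n = 3), and the control group had PBS and the same sham (n = 3). All pups were male and no group carried a genetic change. The other 9 libraries of the run came from IL-1β-exposed pups given 20, 50 or 125 M HuMSC per kg (HuMSC20, HuMSC50 and HuMSC125, n = 3 each), and they entered the main fit. Nothing in the labels says that the 3 libraries of a group came from separate animals, so the p-values measure only the spread between these samples.

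IL-1β binds IL-1R1 and signals through MyD88 to the transcription factor NF-κB, and it also switches on immediate early genes. Microglia are brain-resident macrophages and can answer such signals by making cytokines and by loading peptides onto MHC class II molecules for presentation to T cells. Signals of the IL-6 family reach the cell through the shared receptor chain gp130, encoded by Il6st.

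The injured libraries held 26.5, 34.3 and 21.0 M counts and the control libraries 23.9, 20.3 and 24.3 M. Mitochondrially encoded genes took 4.16 to 5.86 percent of the counts in injured and 4.15 to 7.18 percent in control libraries. In the HuMSC part of the run, HuMSC50 replicate 3 stood apart at 0.487 percent, and HuMSC20 replicate 1, HuMSC125 replicate 1 and HuMSC125 replicate 2 were rich in neuron markers. The microglial marker list averaged 10.35 to 10.42 across the injured libraries and 10.39 to 10.47 across the control libraries in log2 CPM (counts scaled to library size, per M counts), so the labelled cell type held in all 6. Neuron markers lay at 1.35 to 1.72 in injured and 1.22 to 2.23 in control libraries, against up to 5.46 elsewhere in the run.

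With edgeR's quasi-likelihood test on all 15 libraries of the run and Benjamini-Hochberg adjustment, 5 of 14698 genes (0.034 percent) passed an adjusted p of 0.05. Sdc1 and Nr4a2 rose (0.0136 percent), and Ankrd55, Ccdc8 and Gpd1 fell (0.0204 percent). At an unadjusted p under 0.05 there were 538 genes (3.66 percent), 331 higher (2.25 percent) and 207 lower (1.41 percent) in injured libraries. All injured libraries lay above all control libraries for 1115 genes (7.59 percent) and below them for 1098 (7.47 percent), 15.1 percent together.

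Ankrd55, which encodes an ankyrin repeat protein and lies in a human risk locus for autoimmune disease, had 8.54, 9.56 and 14.1 CPM in the injured libraries, against 57.8, 64.6 and 68.0 CPM in the control libraries. The highest injured library lay far below the lowest control library. On the log2 scale Ankrd55 fell by 2.57 ± 0.21 (SE; edgeR adjusted p = 0.000142). In the deposited table this gene, ENSRNOG00000013555, spans chromosome 2 from 44096061 to 44196605 on the forward strand; no source used here names the genome build.

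Sdc1 encodes syndecan-1, a cell surface proteoglycan whose heparan sulfate chains bind chemokines and growth factors. It had 43.8, 33.6 and 35.8 CPM in injured libraries, against 12.7, 13.1 and 10.4 CPM in control libraries. The groups were far apart, and the log2 fold change was 1.65 ± 0.16 (edgeR adjusted p = 0.000538). Of the 27 tested genes for heparan sulfate proteoglycans and the enzymes that build them, Sdc1 alone was called; the related Sdc4 averaged 285.5 CPM in injured and 220.4 CPM in control libraries (log2 fold change 0.37 ± 0.19, unadjusted p = 0.0689), and the list's median was 0.02.

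Nr4a2, which encodes the orphan nuclear receptor NURR1 and is an immediate early gene, had 297, 327 and 191 CPM in injured libraries, against 80.5, 93.4 and 93.0 CPM in control libraries. Injured replicate 3 was the lowest of its group and still well above the highest control. The log2 fold change was 1.61 ± 0.24 (edgeR adjusted p = 0.0291). 

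Ccdc8 encodes a subunit of the 3M complex, a ubiquitin ligase assembly built with CUL7 and OBSL1. It had 3.89, 3.83 and 5.43 CPM in injured libraries, against 11.5, 10.4 and 13.3 CPM in control libraries, and fell by 1.43 ± 0.20 (edgeR adjusted p = 0.0239). The partners were not called: Obsl1 had a log2 fold change of -0.25 ± 0.33 and Cul7 of 0.06 ± 0.19, and none of the other 7 tested genes of the complex and its cullin partners reached an unadjusted p of 0.05. 

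Gpd1 encodes the cytosolic glycerol-3-phosphate dehydrogenase, which links glycolysis to lipid synthesis. It had 8.93, 6.52 and 7.81 CPM in injured libraries, against 19.8, 19.3 and 15.2 CPM in control libraries, with no overlap, and fell by 1.22 ± 0.19 (edgeR adjusted p = 0.0428). 

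Ankrd55 and Sdc1 passed the threshold whichever of the 6 libraries was left out, with adjusted p between 0.000157 and 0.00238 for Ankrd55 and between 0.00186 and 0.00674 for Sdc1. Ccdc8 and Nr4a2 each lost the call in 5 of the 6 leave-one-out fits, and Gpd1 in all 6, where its adjusted p ran from 0.0869 to 0.325. Leaving out injured replicate 1, injured replicate 2 or any 1 of the control libraries gave 2 called genes, and leaving out injured replicate 3 gave 5, where Pde4b, a cyclic AMP phosphodiesterase gene, joined 4 of the genes above. Leaving out HuMSC50 replicate 3, an alternative added after the data were seen, gave 10 genes, the 5 above among them. Without the 3 libraries rich in neuron markers 4 genes were called, Ankrd55, Sdc1, Ccdc8 and Il6st, while the adjusted p was 0.0718 for Nr4a2 and 0.0732 for Gpd1.

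**Figure D1:**
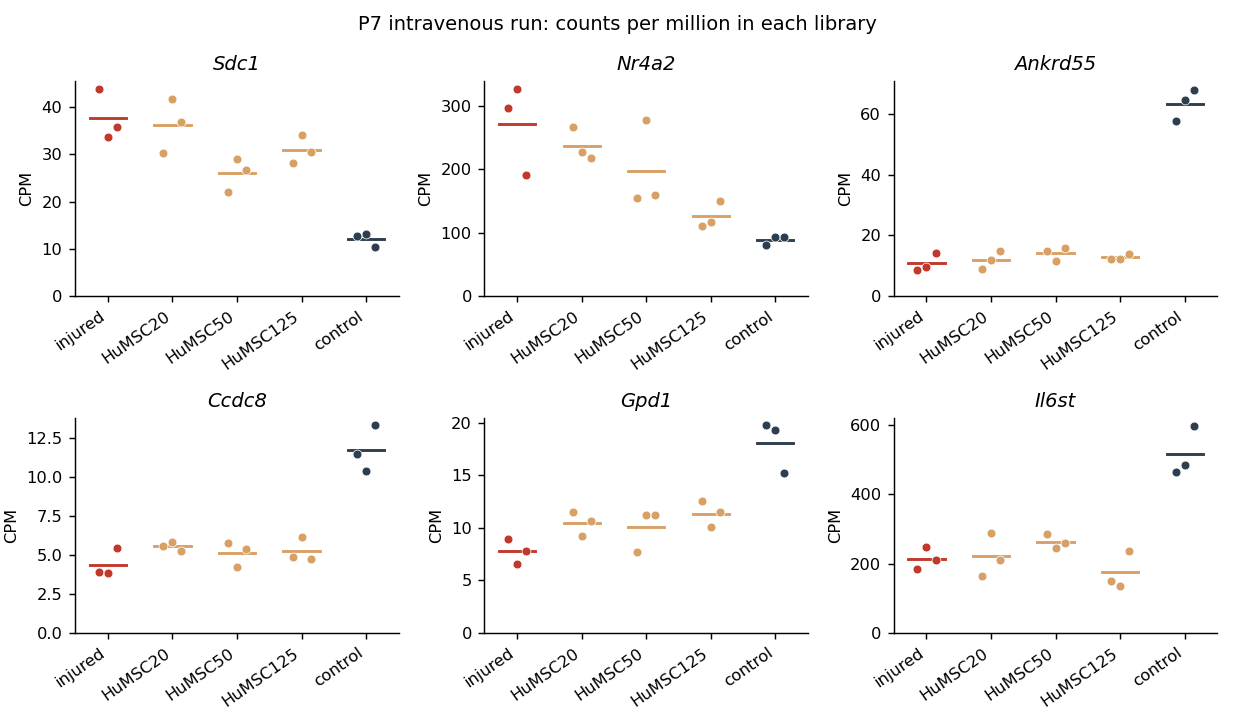
CPM (y axis, linear from 0) of the 5 called genes and of Il6st in each of the 15 libraries of the P7 intravenous run; points are single libraries and bars are group means, n = 3. Sdc1 and Nr4a2 are higher, and the other 4 genes lower, in every injured library than in any control library.

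The HuMSC groups of the run share the control libraries with the injured group, so their values are set side by side without a test between the contrasts. Against control, edgeR called 10 genes for HuMSC20 (0.068 percent of those tested), 6 for HuMSC50 (0.0408 percent) and 1102 for HuMSC125 (7.5 percent), a group with 2 of the libraries rich in neuron markers. The 9 HuMSC libraries had a lowest, median and highest Ankrd55 level of 8.93, 12.3 and 15.9 CPM, and those of Ccdc8 were 4.23, 5.35 and 6.15 CPM. Gpd1 ran from 7.72 over 11.2 to 12.5 CPM. For these 3 genes every HuMSC library lay below every control library. Sdc1 ran from 22.1 over 30.3 to 41.8 CPM and Nr4a2 from 110 over 159 to 278 CPM, and every HuMSC library lay above every control library. Group means of Nr4a2 in the plot of single libraries lay lower with each dose step, and its log2 fold change over control was 1.41 ± 0.23 for HuMSC20, 1.15 ± 0.23 for HuMSC50 and 0.50 ± 0.23 for HuMSC125; the difference between doses was not tested.

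The common biological coefficient of variation was 0.235 in the 15-library fit and 0.13 in a fit of the 6 injured and control libraries alone. That fit called 58 of 13929 genes (0.416 percent), 31 higher (0.223 percent) and 27 lower (0.194 percent) in injured libraries, and 1320 genes (9.48 percent) had an unadjusted p under 0.05. All 5 genes above were among the 58. A fit of the 36 injured and control libraries of all 6 runs called 61 genes (0.418 percent), of which 34 were shared with the 58. The 6-library count changed with the library left out. Without injured replicates 1, 2 and 3 in turn it was 7, 31 and 75 genes. Without control replicates 1, 2 and 3 in turn it was 9, 12 and 39. The genes described below as passing the 6-library fit did not pass in the 15-library fit unless named above.

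Cd74, RT1-Da, RT1-Ba and RT1-Db1, genes of MHC class II presentation, were higher in injured libraries and passed the 6-library fit, and none of them passed the 15-library fit. Cd74, the invariant chain that guides class II molecules through the cell, had 200.1, 214 and 189 CPM in injured libraries, against 83.2, 80.7 and 98.5 CPM in control libraries. The lowest injured library lay well above the highest control library, and the log2 fold change was 1.20 ± 0.23 (edgeR adjusted p = 0.158 in the 15-library and 0.00196 in the 6-library fit). RT1-Da, a class II α chain, had 66.5, 74.8 and 65.2 CPM in injured libraries, against 25.8, 23.8 and 36.8 CPM in control libraries (log2 fold change 1.26 ± 0.27). RT1-Ba, the α chain of the other classical class II molecule, had 49.1, 56.3 and 51.9 CPM in injured libraries, against 24.9, 18.2 and 29.0 CPM in control libraries (1.12 ± 0.26). Neither gene overlapped between groups. RT1-Da passed the 6-library fit at an edgeR adjusted p of 0.0159 and RT1-Ba at 0.0196, as did RT1-Db1 at 0.0165, with means of 30.2 CPM in injured and 13 CPM in control libraries.

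Of 22 tested antigen presentation genes 0 passed the 15-library fit, 4 passed the 6-library fit (all higher), 7 had an unadjusted p under 0.05 (all higher), and 19 had a positive fold change. The list's median log2 fold change was 0.28, against 0.00 over all genes tested. Over all genes, 0.223 percent passed the 6-library fit with higher levels, and 2.25 percent were higher at an unadjusted p under 0.05. A positive fold change was found for 7363 of all 14698 genes. Ciita, the master coactivator of class II genes, was low, with means of 1.93 CPM in injured and 0.97 CPM in control libraries (log2 fold change 1.00 ± 0.33, unadjusted p = 0.00966). Class II genes have near-identical copies, and no source used here says how shared reads were counted, which leaves the split between them uncertain. Dendritic cell markers, another source of class II transcripts, ranged from 2.52 to 2.69 (mean log2 CPM) in injured libraries and from 2.33 to 2.42 in control libraries; their part in the result was not tested. In bulk libraries a change in the number of such cells and a change in RNA per cell cannot be told apart.

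Promoter windows are shown for RT1-Ba and RT1-Da, as class II genes that passed the 6-library fit, and for Crem, a cyclic AMP responsive repressor gene described below. They are RefSeq windows of build GRCr8 from 250 bases before to 50 after a start, on the forward strand: chr20:4576807-4577106 for RT1-Ba, chr20:4515165-4515464 for RT1-Da and chr17:58985240-58985539 for Crem. Capitals mark the cyclic AMP response element TGACGTCA in RT1-Ba and Crem, and the CCAAT box, which reads ATTGG on the reverse strand, in RT1-Ba and RT1-Da.
RT1-Ba: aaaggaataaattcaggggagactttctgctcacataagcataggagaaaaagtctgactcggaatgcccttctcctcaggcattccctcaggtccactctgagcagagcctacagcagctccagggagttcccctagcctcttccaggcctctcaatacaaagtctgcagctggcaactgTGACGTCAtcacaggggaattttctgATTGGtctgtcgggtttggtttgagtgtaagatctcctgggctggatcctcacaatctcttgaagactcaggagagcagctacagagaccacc
RT1-Da: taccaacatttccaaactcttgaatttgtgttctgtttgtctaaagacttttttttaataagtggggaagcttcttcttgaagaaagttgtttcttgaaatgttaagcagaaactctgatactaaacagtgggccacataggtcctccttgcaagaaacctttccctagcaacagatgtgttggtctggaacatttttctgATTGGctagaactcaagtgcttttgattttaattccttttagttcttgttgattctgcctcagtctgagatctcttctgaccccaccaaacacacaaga
Crem: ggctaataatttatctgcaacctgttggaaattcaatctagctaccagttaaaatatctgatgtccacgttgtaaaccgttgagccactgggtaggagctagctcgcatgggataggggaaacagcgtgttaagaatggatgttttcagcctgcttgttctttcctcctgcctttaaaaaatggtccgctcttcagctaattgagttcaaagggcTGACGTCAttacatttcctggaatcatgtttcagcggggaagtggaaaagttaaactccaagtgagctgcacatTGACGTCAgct

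RT1-Ba holds TGACGTCA from base 182 and a CCAAT box from base 208 of its window, the kind of pair that class II promoters are known for, and RT1-Da holds a CCAAT box from base 202. The Crem window shown, the richest of its 3, holds TGACGTCA from bases 216 and 290, another holds 1 copy and the last holds 0. The windows of Nr4a2 and Ankrd55 were also drawn and are not shown. Each of these held 0 copies of TGACGTCA and 0 CCAAT boxes. Over all 33469 windows, searched on both strands, 1.83 percent held TGACGTCA and 37.5 percent CCAAT. Among the 31 windows of 28 genes higher in injured libraries in the 6-library fit, 12.9 percent (4 windows, 2 of them of Crem) held TGACGTCA, 48.4 percent CCAAT and 29.0 percent the NF-kB consensus, which 7.51 percent of all windows held. Among the 20 windows of 17 lower genes these shares were 0, 15.0 and 10.0 percent. The AP-1 site TGACTCA was in 0 of the 31 and in 15.0 percent of the 20 windows, against 4.63 percent of all. In all, 45 of the 58 genes had a window, some had more than 1, and the shares describe these windows only.

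Immediate early genes, which are transcribed within minutes of a stimulus and are also known to respond to tissue dissociation, were the list with the most members at an unadjusted p under 0.05. Of 31 tested, 11 were higher and 1 lower by that measure, against 2.25 and 1.41 percent of all genes tested. In the list 1 (Nr4a2) passed the 15-library fit and 4 the 6-library fit, all higher, against 0.0136 and 0.223 percent of all genes. The median log2 fold change was 0.24. Nr4a3, the sister receptor NOR1, had 35.8, 31.3 and 20.8 CPM in injured libraries, against 7.17, 10.3 and 9.99 CPM in control libraries (log2 fold change 1.68 ± 0.38, edgeR adjusted p = 0.0165 in the 6-library fit). Nr4a1, the third of the family, had 822, 973 and 650 CPM in injured libraries, against 488, 413 and 488 CPM in control libraries (0.82 ± 0.23, adjusted p = 0.0547 in the 6-library fit). All 3 NR4A genes were higher in every injured than in any control library, a pattern that 7.59 percent of all tested genes had. Replicate 3 was the lowest injured library for each.

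Among the AP-1 subunits, Fosl2 had 21.2, 23.6 and 15.9 CPM in injured libraries, against 7.42, 9.22 and 8.74 CPM in control libraries. Its log2 fold change was 1.26 ± 0.45 in the 15-library fit, with an edgeR adjusted p of 0.019 in the 6-library fit. Junb averaged 1057 CPM in injured and 643.9 CPM in control libraries (0.71 ± 0.30, adjusted p = 0.0362 in the 6-library fit). Klf2, an endothelial and immune quiescence factor, was the 1 member lower at an unadjusted p under 0.05, with means of 25 CPM in injured and 45.7 CPM in control libraries (-0.87 ± 0.37, unadjusted p = 0.0352).

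The cyclic AMP genes that passed the 6-library fit pointed both ways. Crem, which encodes repressors that shut off cyclic AMP responsive promoters, had 203, 180 and 149 CPM in injured libraries, against 79.5, 101 and 93.0 CPM in control libraries, with no overlap (log2 fold change 0.96 ± 0.20, edgeR adjusted p = 0.0196 in the 6-library fit). Pde4b, a phosphodiesterase that degrades cyclic AMP, had 46.0, 49.3 and 30.9 CPM in injured libraries, against 24.4, 21.5 and 22.4 CPM in control libraries (0.89 ± 0.16, adjusted p = 0.155 in the 15-library and 0.0669 in the 6-library fit). Prkar2b, a regulatory subunit of protein kinase A, averaged 23.4 CPM in injured and 37.1 CPM in control libraries (-0.66 ± 0.20, adjusted p = 0.0479 in the 6-library fit). Of 26 tested cyclic AMP and CREB genes 0 passed the 15-library fit and 3 the 6-library fit (1 higher, 2 lower), against 0.416 percent of all genes in the latter. At an unadjusted p under 0.05, 4 were higher and 2 lower, against 2.25 and 1.41 percent of all genes, and the median was 0.11. In the list 20 had a positive fold change, as had 7363 of all 14698 genes. All injured libraries lay above all control libraries for 9 and below them for 3, against 7.59 and 7.47 percent of all genes.

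**Figure D2:**
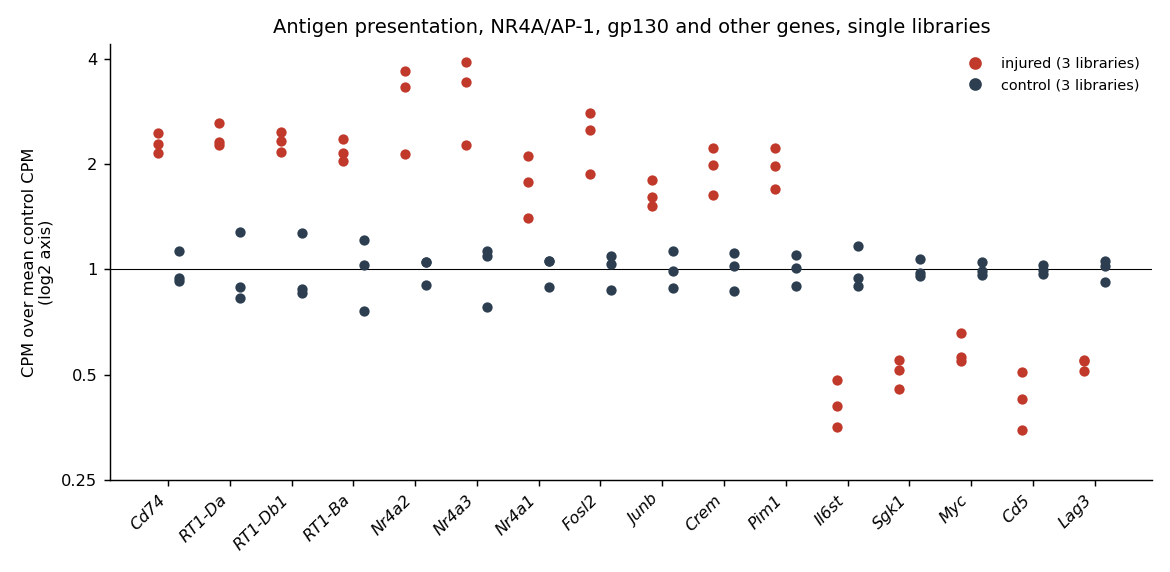
CPM of each library divided by the mean control CPM (log2 y axis) for 16 genes of antigen presentation, the NR4A and AP-1 families, gp130 signalling and others; for each gene the 3 injured libraries stand left and the 3 control libraries right. For all 16 genes the injured and control libraries do not overlap, a pattern that 15.1 percent of all tested genes had. Cd74, the RT1 genes and Nr4a3 are above the control mean, and Il6st, Sgk1, Myc, Cd5 and Lag3 below it. These named genes were called in a fit of the same libraries and chosen with their values known. Their separation therefore follows largely from that choice and is not a separate result.

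The IL-6 family branch was led by its shared receptor. Il6st, which encodes gp130, had 184, 248 and 211 CPM in injured libraries, against 464, 486 and 599 CPM in control libraries. Every injured library lay far below the lowest control library, and the log2 fold change was -1.27 ± 0.22 (edgeR adjusted p = 0.139 in the 15-library fit, 0.0271 without the 3 libraries rich in neuron markers, and 0.0105 in the 6-library fit). Il6r, the IL-6 receptor α chain, averaged 458.2 CPM in injured and 608.7 CPM in control libraries (-0.41 ± 0.12, unadjusted p = 0.00381). Pim1, a survival kinase, was higher, with 63.8, 71.3 and 54.9 CPM in injured libraries, against 29.0, 32.6 and 35.3 CPM in control libraries (0.97 ± 0.20, adjusted p = 0.0156 in the 6-library fit). Socs3, the feedback inhibitor of gp130, had 28.6, 29.3 and 23.1 CPM in injured libraries, against 22.9, 19.4 and 18.1 CPM in control libraries (0.42 ± 0.17, unadjusted p = 0.0258). The ligand gene Osm averaged 76.2 CPM in injured and 52.1 CPM in control libraries (0.55 ± 0.16, unadjusted p = 0.00353). Of 20 tested genes 0 passed the 15-library fit and 3 the 6-library fit (2 higher, 1 lower), against 0.416 percent of all genes in the latter. At an unadjusted p under 0.05, 4 were higher and 2 lower, against 2.25 and 1.41 percent of all genes, and the median was 0.14.

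Il6st is the next gene after Ankrd55 in RefSeq's GRCr8 order. Of the 5 genes on either side, Gpbp1 had a log2 fold change of -0.06 ± 0.15, Mier3 of 0.02 ± 0.13 and Map3k1, the neighbour on the other side, of 0.37 ± 0.24. Beyond Il6st, Slc38a9 had -0.19 ± 0.21 and Plpp1 -0.08 ± 0.15. These 5 genes did not pass either fit. Il31ra and Ddx4 had 8 and 1 counts over the 6 libraries, Actbl2 had 0, and Pgk1l1 was not analysed here. Within this stretch Ankrd55 passed both fits with lower levels in injured libraries, and Il6st passed the 6-library fit only. Slc38a9 was also lower in every injured library than in any control library, by a smaller margin. It had 39.0, 39.6 and 37.1 CPM in injured libraries, against 43.0, 47.2 and 41.9 CPM in control libraries.

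None of the NF-κB genes passed a test, and 22 of 27 had a positive fold change, as had 7363 of all 14698 genes. Of 27 tested subunits, inhibitors and cytokine targets 0 passed either fit. At an unadjusted p under 0.05, 6 were higher and 0 lower, against 2.25 and 1.41 percent of all genes, and the median was 0.18. Tnfaip3, the ubiquitin-editing brake A20, averaged 545.6 CPM in injured and 363.0 CPM in control libraries (log2 fold change 0.59 ± 0.22), and Rel, the c-Rel subunit, 79.5 CPM in injured and 51.6 CPM in control libraries (0.62 ± 0.21). Cxcl1, a neutrophil chemokine, averaged 103.6 CPM in injured and 69.9 CPM in control libraries (0.57 ± 0.20), and Cxcl2 401.2 CPM in injured and 298.3 CPM in control libraries (0.43 ± 0.16). For 13 of the 27 genes all injured libraries lay above all control libraries, a pattern that 7.59 percent of all tested genes had. The chemokine gene Ccl3 was the 1 member with all injured below all control libraries (-0.26 ± 0.17).

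The IL-1 pathway itself showed little. Il1b had 627, 655 and 478 CPM in injured libraries, against 536, 493 and 408 CPM in control libraries, and the groups overlapped (log2 fold change 0.29 ± 0.16, unadjusted p = 0.0886). Il1rn, the receptor antagonist, had 24.7, 26.1 and 21.0 CPM in injured libraries, against 12.2, 17.9 and 17.9 CPM in control libraries, without overlap (0.58 ± 0.28, unadjusted p = 0.0568). The signalling receptor Il1r1 had 10.1, 7.79 and 11 CPM in injured libraries, against 11.3, 11 and 8.58 CPM in control libraries (-0.10 ± 0.29). Of 25 tested genes of the family 0 passed either fit, and the median was 0.07. At an unadjusted p under 0.05, 1 was higher (Il18rap, an IL-18 receptor chain, 0.65 ± 0.22) and 0 lower, against 2.25 and 1.41 percent of all genes. Tnf had 0 counts in the 6 libraries and was not tested, and Ptgs2, the inducible cyclooxygenase, had 23.5, 21.4 and 20.1 CPM in injured libraries, against 21.9, 16.5 and 19.7 CPM in control libraries (0.16 ± 0.28).

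Homeostatic microglial genes gave no call in the 15-library fit among 29 tested, with a median of -0.03. At an unadjusted p under 0.05, 1 was higher and 1 lower, against 2.25 and 1.41 percent of all genes. P2ry12, the purinergic receptor of surveying microglia, had means of 1420 CPM in injured and 1543 CPM in control libraries (-0.12 ± 0.27). Cx3cr1, the fractalkine receptor, differed by 0.12 ± 0.17 and Csf1r, the survival receptor, by -0.03 ± 0.14. Tgfbr1, the type I receptor for TGF-β, was the 1 member that passed the 6-library fit, where 0.223 percent of all genes passed with higher levels. It had 842, 913 and 748 CPM in injured libraries, against 542, 586 and 564 CPM in control libraries (0.56 ± 0.19, edgeR adjusted p = 0.0456 in the 6-library fit). 

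Among the T and NK cell markers, Cd5 and Lag3 were lower in the injured libraries while most others were not. Of 9 tested, 6 had a positive fold change, as had 7363 of all 14698 genes, 0 passed the 15-library fit, and the median was 0.29. At an unadjusted p under 0.05, 3 were higher and 2 lower, against 2.25 and 1.41 percent of all genes. Cd5, a scavenger receptor family protein of T cells, had 5.31, 7.73 and 6.50 CPM in injured libraries, against 15.2, 15.7 and 14.8 CPM in control libraries, with wide separation (log2 fold change -1.22 ± 0.23, edgeR adjusted p = 0.0159 in the 6-library fit). Lag3, an inhibitory receptor that binds class II molecules, had 5.20, 5.49 and 5.57 CPM in injured libraries, against 10.7, 10.3 and 9.24 CPM in control libraries (-0.90 ± 0.21, adjusted p = 0.0333 in the 6-library fit). Cd8a averaged 37.2 CPM in injured and 24.4 CPM in control libraries (0.61 ± 0.23, unadjusted p = 0.0181), and Lck differed by -0.02 ± 0.22. The defining T cell receptor genes Cd3d, Cd3e and Cd3g had 21, 5 and 1 counts over the 6 libraries and did not pass the filter on low counts. The mean log2 CPM of the T and NK markers ran from 2.24 to 2.89 in injured libraries, against 2.41 to 2.53 in control libraries.

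Other genes that passed the 6-library fit with lower levels belong to metabolism and growth control. Sgk1, a kinase induced by glucocorticoids, had 419, 443 and 369 CPM in injured libraries, against 869, 773 and 791 CPM in control libraries (-0.98 ± 0.18, edgeR adjusted p = 0.00525 there). The groups lay far apart, while another glucocorticoid target, Tsc22d3, had -0.18 ± 0.16. Myc, the growth-promoting transcription factor, had 70.3, 84.1 and 72.2 CPM in injured libraries, against 124, 127 and 134 CPM in control libraries (-0.76 ± 0.15, adjusted p = 0.0149 in the 6-library fit). Lpl, lipoprotein lipase, had 109, 110 and 94.3 CPM in injured libraries, against 171, 143 and 192 CPM in control libraries (-0.69 ± 0.22, adjusted p = 0.0482 in the 6-library fit). Pygm, muscle-type glycogen phosphorylase, had 8.73, 6.67 and 8.94 CPM in injured libraries, against 18.7, 13.9 and 15.0 CPM in control libraries (-0.97 ± 0.19).

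On the higher side, Clec12a, an inhibitory C-type lectin, had 10.7, 9.88 and 12.6 CPM in injured libraries, against 3.62, 5.28 and 4.76 CPM in control libraries (log2 fold change 1.28 ± 0.25, edgeR adjusted p = 0.0223 in the 6-library fit). Every injured library lay well above the highest control library. Runx3, a Runt family transcription factor, had 12.1, 12.1 and 8.85 CPM in injured libraries, against 3.72, 2.95 and 4.77 CPM in control libraries, with a 6-library log2 fold change of 1.53 ± 0.21 (adjusted p = 0.0196). Pmaip1, the pro-apoptotic BH3 protein NOXA, had 69.0, 62.2 and 59.6 CPM in injured libraries, against 36.1, 39.7 and 34.1 CPM in control libraries (0.80 ± 0.16, adjusted p = 0.0144 in the 6-library fit). Cd38, an NAD-consuming surface enzyme, had 23.1, 24.1 and 17.1 CPM in injured libraries, against 10.4, 9.99 and 10.5 CPM in control libraries, with a 6-library log2 fold change of 1.06 ± 0.14 (adjusted p = 0.0196).

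Of 25 cholesterol synthesis genes 0 passed either fit, 4 had a positive fold change, as had 7363 of all 14698 genes, and the median was -0.15. At an unadjusted p under 0.05, 0 were higher and 3 lower (Msmo1 among them), against 2.25 and 1.41 percent of all genes. For 10 of the 25 all injured libraries lay below all control libraries, against 7.47 percent of all tested genes. The list's mean log2 CPM was 4.8 to 4.83 in injured libraries and 4.93 to 5.11 in control libraries, without overlap. Msmo1, a sterol demethylase, had 53.3, 55.4 and 56.6 CPM in injured libraries, against 70.2, 70.7 and 80.9 CPM in control libraries (-0.42 ± 0.16). All 28 tested oxidative phosphorylation genes had negative fold changes, the lowest at -0.19, and 0 reached an unadjusted p of 0.05. Of the 42 cell cycle genes 0 reached it either, and the proliferation marker Mki67 had 228, 238 and 217 CPM in injured libraries, against 225, 255 and 240 CPM in control libraries (-0.08 ± 0.20).

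**Figure D3:**
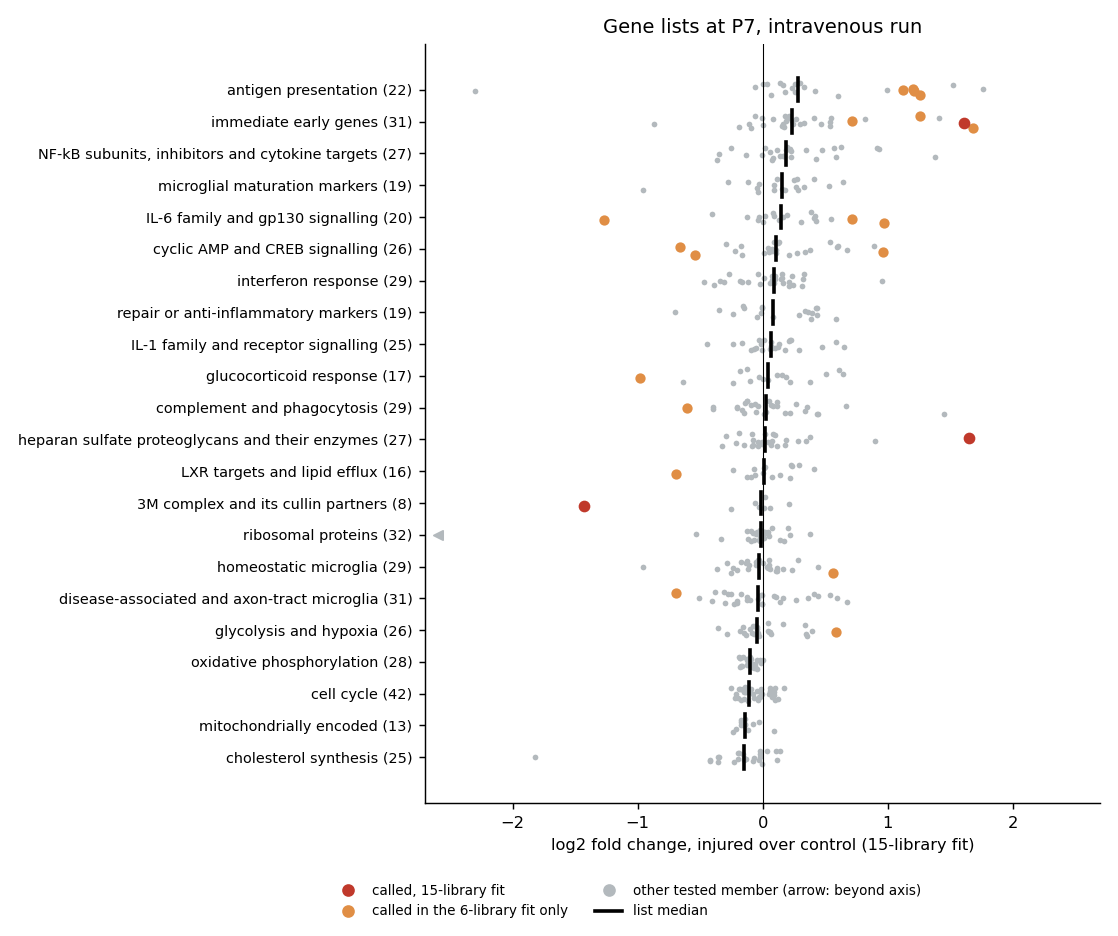
Log2 fold change of injured over control (x axis, 15-library fit) of every tested member of 22 gene lists, ordered by median; each point is a gene, the black bar the list median, red a call in the 15-library fit and orange a call in the 6-library fit alone. Antigen presentation and immediate early genes have the highest medians (0.28 and 0.24), and cholesterol synthesis the lowest (-0.15). The entry named Rpl30 lies beyond the axis.

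No marker of another cell type passed the 15-library fit. In the 6-library fit these markers gave the 2 T and NK cell calls above, of 8 tested, and Lum, a fibroblast matrix gene, of 10 tested. All were lower in injured libraries, as were 0.194 percent of all genes tested there. Lum had 6.70, 7.14 and 8.66 CPM in injured libraries, against 15.7, 14.6 and 13.4 CPM in control libraries. Fibroblast markers ranged from 3.67 to 4.24 (mean log2 CPM) in injured libraries and from 4.27 to 4.54 in control libraries, without overlap. All 11 tested members had negative fold changes, while 7363 of all 14698 genes had positive ones. Oligodendrocyte precursor markers ranged from 2.05 to 2.94 in injured and from 2.48 to 3.27 in control libraries, and neutrophil markers from 2.33 to 2.62 in injured and from 1.76 to 2.35 in control libraries. The part of such cells in the differences above was not tested.

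The P7 intranasal run, with its own 3 injured and 3 control libraries, repeated the comparison in other samples, at the same age and with the same dissociation kit. Its own 15-library fit called 772 of 13872 genes (5.57 percent). All 5 genes called in the intravenous run had the same sign and were called there too: the log2 fold change was -3.42 ± 0.34 for Ankrd55, -1.88 ± 0.23 for Ccdc8, -1.64 ± 0.19 for Gpd1, 2.10 ± 0.20 for Sdc1 and 1.57 ± 0.22 for Nr4a2 (edgeR adjusted p between 0.000116 and 0.00146). Ankrd55 had 8.12, 7.12 and 7.10 CPM in the intranasal injured libraries, against 80.2, 79.1 and 80.2 CPM in the intranasal control libraries. 

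Of the 58 genes of the intravenous 6-library fit, 56 (96.6 percent) had the same sign in the intranasal run. Both exceptions were named after their values were seen: the provisional gene AABR07001910.1, with a log2 fold change of -4.54 in the intravenous and 2.58 in the intranasal run, and Sgpp1, a sphingosine-1-phosphate phosphatase gene, with 0.81 and -0.37 in the same order. Called in both with the same sign were 44, which is 75.9 percent of the 58 and 5.76 percent of the 764 intranasal calls tested in both fits. Il6st, with 130, 91.3 and 116 CPM in intranasal injured libraries against 549, 446 and 334 CPM in intranasal control libraries, was among them, as were Cd74, RT1-Da, RT1-Ba, Sgk1, Fosl2, Crem, Cd5 and Myc. Nr4a3, Junb, Lag3, Lpl and Dsp were not. Dsp, which encodes the junction protein desmoplakin, had 15.6, 21.4 and 16.5 CPM in injured libraries of the intravenous run, against 59.6, 44.3 and 86.1 CPM in its control libraries, and an intranasal log2 fold change of -0.32 (adjusted p = 0.739).

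Over the 13756 genes tested in both runs, 67.9 percent had the same sign, with Pearson's r of 0.395 and Spearman's rho of 0.432 across genes, which are not independent replicates. The median size of the log2 fold change was 0.115 in the intravenous and 0.18 in the intranasal run. In a fit of 36 libraries, edgeR called 0 genes for the difference between the injury effects of both runs (0 percent of 14605), 734 (5.03 percent) had an unadjusted p under 0.05, and DESeq2 called 63. Cell cycle genes had a median of -0.11 in the intravenous and -0.87 in the intranasal run, neutrophil markers of 0.35 and 2.27, and mast cell markers of -0.54 and 1.38, in the same order; these medians were not tested against each other. Enpp6, a gene of newly forming oligodendrocytes, had 4.81, 2.98 and 9.03 CPM in intravenous injured libraries against 6.71, 7.00 and 13.6 CPM in intravenous control libraries, and 2.31, 3.09 and 3.12 CPM in intranasal injured libraries against 23.9, 19.0 and 16.3 CPM in intranasal control libraries. The difference of its effects was 2.08 ± 0.64 (edgeR adjusted p = 0.365).

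**Figure D4:**
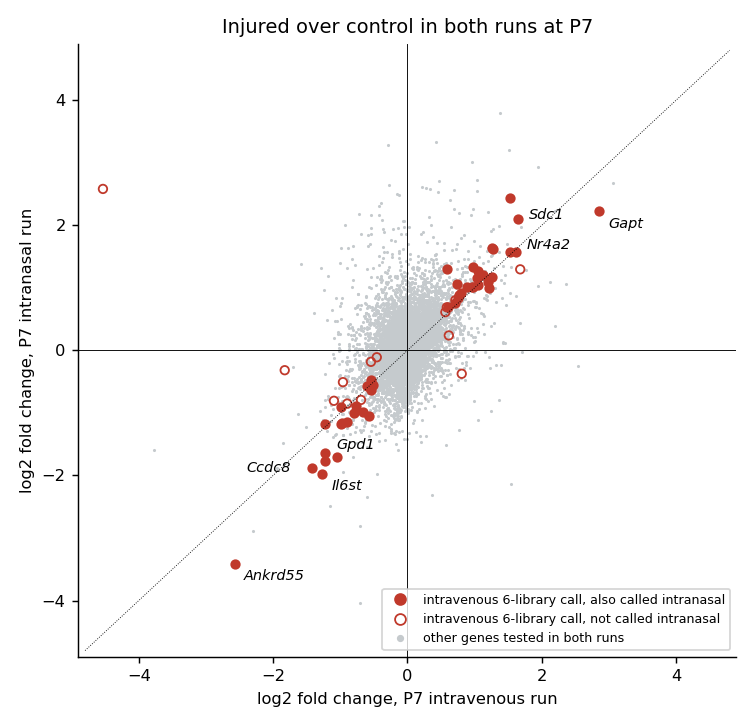
Log2 fold change of injured over control in the P7 intravenous run (x axis) and the P7 intranasal run (y axis) for 13756 genes; red points are the 58 genes of the intravenous 6-library fit, filled where the intranasal run also called them with the same sign (44), and 2 grey genes lie outside the axes. Ankrd55 lies at the lower left and Sdc1 at the upper right; the open point at the upper left is AABR07001910.1.

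The injury effect at P7 was compared with that in the intravenous runs at P12 and P22, whose injured and control pups had the same IL-1β or PBS course and the sham at P10 or P20, and where age, sequencing run and dissociation kit change together and cannot be told apart. The difference from P7 was called for 2 genes at P12 (0.0137 percent) and for 5 at P22 (0.0342 percent). Ankrd55 was called in both. At P12 it had 123, 82.3 and 90.8 CPM in injured libraries, against 111, 109 and 110 CPM in control libraries, and at P22 102, 115 and 82.5 CPM in injured libraries, against 123, 70.4 and 132 CPM in control libraries. The groups overlapped at both later ages. On the log2 scale its injury effect at P12 exceeded that at P7 by 2.42 ± 0.32 (edgeR adjusted p = 0.000343), and that at P22 by 2.46 ± 0.32 (adjusted p = 0.000263).

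The other genes called were Gpr132 at P12, and Gapt, Nkd2, Donson and Cblb at P22. Gpr132, a receptor for oxidised lipids, had 5.27, 7.32 and 5.71 CPM in injured libraries at P7, against 2.50, 2.37 and 1.49 CPM in control libraries, and at P12 1.21, 2.23 and 1.66 CPM in injured libraries, against 2.95, 3.72 and 2.32 CPM in control libraries. All injured libraries lay above the controls at P7 and below them at P12 (difference -2.35 ± 0.41, edgeR adjusted p = 0.0271). Cblb, a ubiquitin ligase that dampens immune receptor signals, had 38.9, 45.7 and 40.8 CPM in injured libraries at P7, against 30.7, 30.9 and 30.4 CPM in control libraries, and at P22 19.8, 17 and 21.8 CPM in injured libraries, against 32.4, 24.7 and 23.5 CPM in control libraries. Donson, a replication fork factor, and Gapt, an adaptor of immune cells, likewise lay above the controls at P7 in every injured library. The call of Gpr132 was lost when replicate 2 or 3 of either P7 group was left out, and that of Ankrd55 in 0 of 6 at either age. Leaving out injured replicate 2 gave 3 genes for P22 and injured replicate 3 gave 14, with 2, 9 and 3 genes when control replicates 1, 2 and 3 were left out in turn.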

How the data were processed

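Polyadenylated RNA of CD11b/c-enriched cells was sequenced as stranded single reads of 75 bp, 15 libraries per run, per the labels' protocols. The authors deposited raw whole-number counts per gene for 32623 genes; the submitters' processing notes name HTSeq 0.5.3, DESeq2 1.8.1, STAR 2.7.2d and SAMtools, while the genome build, the annotation and the handling of strand and shared reads are not given in the sources used here. Groups follow the sample titles. From these counts, genes were kept by filterByExpr (minimum count 10, minimum total 15), scaled by TMM, and tested with edgeR 4.0.16 (R 4.3.3, quasi-likelihood, Benjamini-Hochberg threshold 0.05) on the 15 libraries of the run, so that all groups share 1 estimate of the spread; errors of fold changes are SE derived from the F statistic. Alternatives were other scalings, no filter, DESeq2 1.42.0, a replicate block, leaving out libraries, and fits of 6 or 36 libraries. Routes and ages were compared by differences of effects in the 36-library fit. In those comparisons CPM at P12 and P22 were scaled in that fit, and CPM of each P7 run in its own 15-library fit. The procedure was tested on simulated data of 14548 genes in the 15-library fit. There 58.0 percent of 100 genes changed 2-fold and 85.0 percent of 100 changed 4-fold were recovered. The simulated spread followed the trend over all genes, without differences between single genes, and 149 genes were called, against 5 in the real data. These shares may therefore be higher than those reached in the real data.

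Genes were named by a rule on p, on list membership and on the difference tests; other genes of the 6-library fit are named for their known roles, after their values were seen. The members and the 39 gene lists were chosen with earlier results of these data known. Of 755 list genes 729 were matched, 9 by a synonym. Library totals, given with the results, limit the precision of low counts. Some members of the lists are counted but not reported by name here.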

Additional observations from a re-analysis of the deposited data

Results flagged for a closer look

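The injury effect differed between ages, in a test of the difference itself, for 6 genes of the intravenous runs. For Ankrd55 the effect at P12 minus that at P7 was 2.42 ± 0.32 on the log2 scale (edgeR adjusted p = 0.000343), and the effect at P22 minus that at P7 was 2.46 ± 0.32 (adjusted p = 0.000263). For Gpr132 the P12 effect minus the P7 effect was -2.35 ± 0.41 (edgeR adjusted p = 0.0271).

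At P22 minus P7 the difference was -3.62 ± 0.58 for Gapt (edgeR adjusted p = 0.00624), -0.91 ± 0.17 for Donson (0.0219), -0.90 ± 0.17 for Cblb (0.0341) and 1.01 ± 0.17 for Nkd2 (0.0107). Gapt had 1.5, 1.8 and 3.09 CPM in injured libraries at P7, against 0.458, 0.0986 and 0.29 CPM in control libraries, and at P22 1.8, 3.20 and 4.82 CPM in injured libraries, against 5.6, 6.85 and 4.70 CPM in control libraries. Donson had 35.1, 38.6 and 44.4 CPM in injured libraries at P7, against 23.5, 32.5 and 25.1 CPM in control libraries, and at P22 32.1, 32.1 and 33.8 CPM in injured libraries, against 44.6, 43.2 and 39.6 CPM in control libraries. Nkd2, an inhibitor of Wnt signalling, ran the other way, with 16.0, 13.3 and 17 CPM in injured libraries at P7, against 24.3, 21.0 and 19.6 CPM in control libraries, and at P22 24.1, 19.2 and 20.4 CPM in injured libraries, against 14, 14.4 and 16.2 CPM in control libraries. Leaving out each P7 library in turn kept the call of Gapt in all 6 fits and ended that of Cblb in 4, of Donson in 3 and of Nkd2 in 2. All of these 3 calls were lost without injured replicate 2 or control replicate 1, those of Cblb and Donson also without control replicate 3, and that of Cblb without control replicate 2. Age, sequencing run and dissociation kit cannot be told apart here.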

How the results depend on the processing

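The count of 5 genes between injured and control libraries was also 5 with RLE or upper-quartile scaling, without the filter and with robust dispersion. Leaving out the 3 neuron-rich libraries gave 4 and ended the calls of Nr4a2 and Gpd1. DESeq2 gave 58, the 6-library fit 58, the 36-library fit 61 and leaving out each replicate 2 to 5. Of the 58 DESeq2 calls, 33 were among the 58 of the 6-library fit. Alternatives added after the data were seen gave 10 without HuMSC50 replicate 3, 65 without it and the 3 neuron-rich libraries, 50 in the 12 injured and control libraries at P7, and 320 with DESeq2 on the 6 libraries. The 6-library count ran from 7 to 75 with each replicate left out. For the difference between routes the count of 0 became 1 without the filter and 63 with DESeq2, and 0 to 1 with each replicate left out. The P12 difference (2 genes) gave 4 without the filter, 7 with DESeq2 and 1 to 3 with each replicate left out, and the P22 difference (5 genes) 9, 65 and 2 to 14 in the same order. The causes of these differences were not tested. No called value changed sign under any alternative run.

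With the replicate number as a block the count was 2 (Ankrd55 and Sdc1), and 50 in the 6-library fit. The block also ended the P22 minus P7 calls of Cblb (edgeR adjusted p = 0.0741), Donson (0.0716) and Nkd2 (0.0553). Same-numbered injured and control libraries had deviations correlated at 0.195, 0.0995 and -0.0933, and differently numbered ones at -0.281 to 0.188. With 3 libraries per group these values cannot decide whether the numbers pair the samples, and the labels do not say.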

Other observations

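Gene groups not described above gave 0 calls in the 15-library edgeR fit. At an unadjusted p under 0.05, 2.25 percent of all tested genes were higher and 1.41 percent lower. Of 31 genes of disease-associated and axon-tract microglia, 2 were higher and 3 lower at an unadjusted p under 0.05, with a median log2 fold change of -0.04. The lysosomal protease gene Ctsb had 4215, 3614 and 3735 CPM in injured libraries, against 6345, 5575 and 4585 CPM in control libraries, without overlap (-0.51 ± 0.15). Ctsl, a related protease, had 1422, 1472 and 1350 CPM in injured libraries, against 1870, 1904 and 1762 CPM in control libraries (-0.38 ± 0.13). In the intranasal run both fell, Ctsb with a log2 fold change of -0.47 (edgeR adjusted p = 0.00456) and Ctsl with -0.41 (0.00393).

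Of 29 complement and phagocytosis genes, 2 were higher and 2 lower at an unadjusted p under 0.05, with a median of 0.03. C3, the central complement component, had 78.7, 94.5 and 84.5 CPM in injured libraries, against 43.2, 66.1 and 53.0 CPM in control libraries (0.67 ± 0.26). Fcgr2b, the inhibitory Fc receptor, had 334, 349 and 275 CPM in injured libraries, against 496, 471 and 490.3 CPM in control libraries, and passed the 6-library fit (-0.60 ± 0.25, edgeR adjusted p = 0.0447 there). Of 29 interferon response genes 2 were higher and 0 lower by the same measure, with a median of 0.09 here and -0.18 in the intranasal run.

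The entry named Rpl30, ENSRNOG00000032825, spans chromosome 10 from 38024477 to 38024937. It had 2.39, 2.12 and 1.22 CPM in injured libraries, against 3.25, 44.8 and 31.4 CPM in control libraries (-3.77 ± 0.98, edgeR unadjusted p = 0.0018). Control replicate 1 lay close to the injured libraries, and the HuMSC libraries ran from 2.42 to 44.1 CPM. Over the run its mean log2 CPM was 3.86. The ribosomal protein list averaged 7.4 to 7.57 in injured and 7.5 to 7.68 in control libraries. No source used here says how shared reads were counted, and whether these reads come from this locus alone was not tested. The other ribosomal protein genes tested did not reach an unadjusted p of 0.05.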
